A study of Rattus norvegicus with 2 samples.

Results

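miR-451 and miR-144 are a pair of neighbouring miRNAs of the red-cell lineage, measured here in rat carotid artery 10 days after balloon injury and in carotid artery that was not injured. They were taken by name, as the features rno-miR-451 and rno-miR-144, which are 2 of the 350 rat miRNA features on the arrays. The injured group held 1 array, of carotid artery from male Sprague-Dawley rats of about 250 g in which a balloon had injured the vessel. The uninjured group also held 1 array, of carotid artery from male rats of the same strain and weight without that injury. Total RNA was labelled with Cy3 and hybridised to 1-colour miRNA arrays. The number of rats behind each array, and whether the vessels were flushed of blood, is not stated in the labels. With 1 array per group no replicate error, test or p-value can be given, and every value compares these 2 arrays.

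Both miRNAs are cut from 1 primary transcript, which the factor GATA1 switches on as red cells mature, and they are among the most used marks of red cells in tissue and plasma RNA. miR-451 is matured without Dicer: its short hairpin is cut by the Argonaute protein Ago2 instead, whereas miR-144 takes the usual route through Dicer. In mouse erythroid cells miR-451 represses the 14-3-3 zeta gene Ywhaz and helps red cells withstand oxidative stress. Balloon injury strips the endothelium and stretches the vessel wall, after which smooth muscle cells build a neointima.

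The sequences below show why the pair can be treated as 1 locus with different products. RefSeq, on build GRCr8, places both hairpins on the plus strand of chromosome 10, Mir144 at chr10:63459397-63459479 and Mir451a at chr10:63459569-63459640. They are separated by 89 bases and lie between 2 protein-coding genes. By coordinate, Flot2 lies 13585 bases before Mir144 and Eral1 lies 133 bases after Mir451a. RefSeq entries were found for both members. The arrays use names without an arm, and by the history of these names they are miR-451-5p and miR-144-3p, although probe sequences are not used here. In the mature sequences, 5′ to 3′, capitals mark the seed (bases 2 to 8), the stretch that chiefly sets which messages a miRNA binds.
rno-miR-451-5p: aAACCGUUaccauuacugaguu
rno-miR-144-3p: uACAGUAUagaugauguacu
In the hairpins, capitals mark the mature miRNA.
Mir451a: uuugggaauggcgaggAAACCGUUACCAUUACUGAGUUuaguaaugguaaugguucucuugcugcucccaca
Mir144: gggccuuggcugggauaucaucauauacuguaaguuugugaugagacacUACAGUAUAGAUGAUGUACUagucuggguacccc

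The hairpin of miR-451 has 72 bases and that of miR-144 has 83. In the structures predicted by RNAfold, the 22 bases of mature miR-451 fill positions 17 to 38 of the hairpin, with 17 bases paired on the 5′ side and 4 bases that make up the whole terminal loop of 4. The 20 bases of mature miR-144 fill positions 50 to 69, with 19 bases paired on the 3′ side and 0 in the terminal loop of 6. The seeds of the pair differ. Among 693 mature rat miRNA names in the RefSeq table, 0 others share bases 2 to 8 of miR-451 or of miR-144. Bases 2 to 7 of miR-144 are shared by 2 others, miR-101a-3p and miR-101b-3p, which match it over the first 7 bases and are shown for that overlap, with the seed in capitals.
rno-miR-101a-3p: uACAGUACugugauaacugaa
rno-miR-101b-3p: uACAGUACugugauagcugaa

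Both miRNAs were detected on both arrays, and both were dimmer in the injured artery. miR-451 had an intensity of 109 in the injured artery, against 641 in the uninjured artery. It took up 0.112% of the summed miRNA signal in the injured artery and 0.672% in the uninjured artery. miR-144 was a dim feature, at 15.6 in the injured artery against 35.7 in the uninjured artery, or 0.0160% against 0.0374% of the summed signal. These are intensities as deposited, with no scaling added here, in arbitrary units. Since brightness depends on the probe, the gap between the miRNAs on 1 array is not a gap in abundance.

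The distance from background differed between the members. The brightest miRNA that was listed as undetected had an intensity of 5.98 on the injured array and 8.84 on the uninjured array. miR-451 stood 18.2-fold above that level in the injured artery and 72.5-fold above it in the uninjured artery. miR-144 stood 2.61-fold above it in the injured artery and 4.04-fold above it in the uninjured artery. Its ratio therefore rests on signals much nearer to background than that of miR-451.

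**Figure D1:**
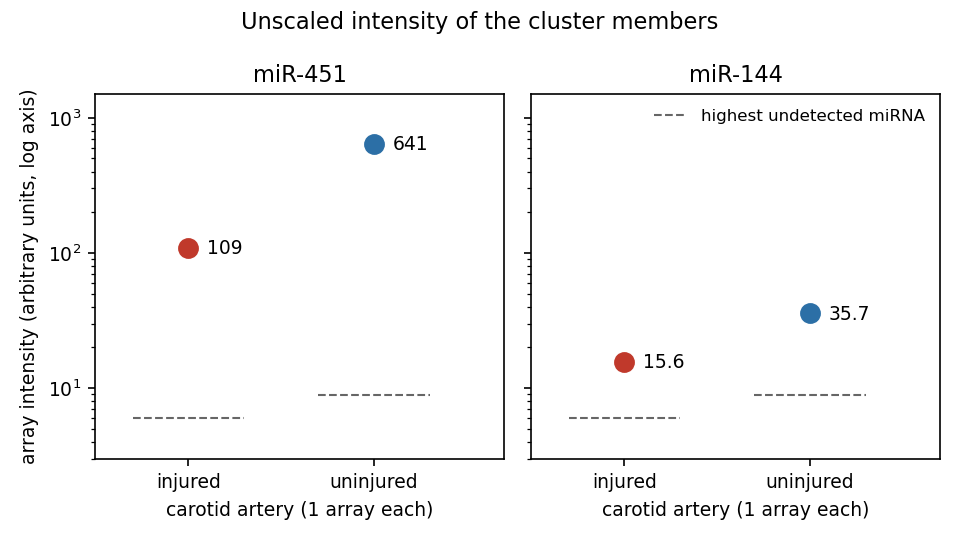
Array intensity as deposited, with no scaling added (log axis, arbitrary units), of miR-451 and miR-144 in injured and uninjured carotid artery, 1 array each. The highest intensity of an undetected miRNA on that array is a dashed line. miR-451 lies at 109 in the injured and 641 in the uninjured artery, and miR-144 at 15.6 in the injured and 35.7 in the uninjured artery, nearer to the dashed lines.

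For comparison between arrays, the 75th percentile of log2 intensity, taken over the 158 miRNAs detected on both arrays, was subtracted on each array, and the log2 ratio is injured minus uninjured. miR-451 had a log2 ratio of -2.47, that is, it was 5.53-fold lower in the injured artery, the lowest of the 158 ratios. miR-144 had a log2 ratio of -1.11, or 2.16-fold lower, and stood at place 4 from the lowest. The 158 leave out miRNAs detected on 1 array only. Of those, miR-137 was at least 8.74-fold lower in the injured artery, taken at that array's highest undetected intensity. That is a larger fold than that of miR-451. For miR-138 and miR-124 the same bound was 4.19-fold and 2.56-fold. With each array's highest undetected intensity subtracted, which 151 miRNAs exceeded on both arrays, miR-1 was lowest at -4.16, miR-451 second at -2.57 and miR-144 next at -1.44. The value of miR-1 rests on a small remainder, since its injured intensity of 6.64 was just above the 5.98 subtracted from that array. A ratio of at least 2-fold lower was met by 6 of the 158 miRNAs (3.8%), of which this cluster makes up 2, and at least 2-fold higher by 20 (12.7%). A ratio below 0 was met by 55 of the 158 (34.8%), both members among them. Other scalings moved the ratios downward, with a median shift of -0.59 at most, except that quantile normalization moved 10 of the 158 upward. The shift of -0.59 came from aligning the control features, where 7 miRNAs were at least 2-fold higher and 23 lower, with both members still among the lower. Of the 22 control features 6 were detected on each array, so this scaling rests on at most 6 features. The median ratio of the 158 was 0.14, with quartiles of -0.14 and 0.58. In bulk RNA, fewer cells of a type and less of the miRNA per cell cannot be told apart.

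**Figure D2:**
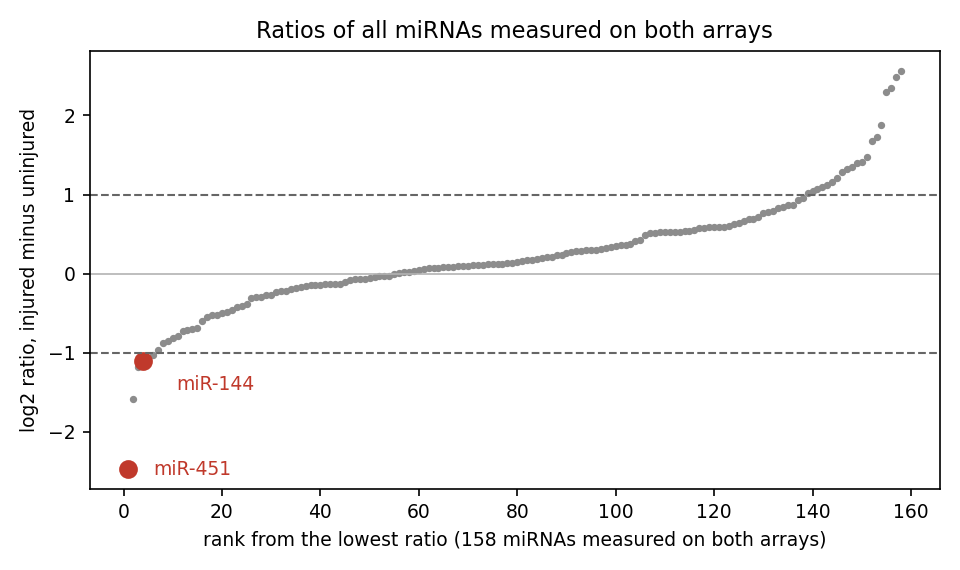
Log2 ratio (injured minus uninjured) of the 158 miRNAs detected on both arrays, ordered from the lowest, with dashed lines at 2-fold. miR-451 at -2.47 stands apart at the low end, and miR-144 at -1.11 lies just below the 2-fold line beside other miRNAs.

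miRNAs of like signal show how far each ratio lay from its surroundings. Of the 25 other miRNAs whose mean log2 intensity was within 1 unit of that of miR-451, the ratios ran from -1.03 (miR-133b) to 1.67, with quartiles of -0.06 and 0.59, and 0 were as low as miR-451. The next lowest among them was miR-338 at -0.85. Of the 52 miRNAs of like signal to miR-144, the ratios ran from -1.58 (miR-1) to 2.56, with quartiles of -0.16 and 0.67, and 1 was lower than miR-144. The range was wider among the miRNAs as dim as miR-144 than among those as bright as miR-451. That range rests on 52 miRNAs against 25, and the quartiles of the sets differed less.

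The ratio nearest to that of miR-451 was that of miR-1, a miRNA of muscle, at -1.58, which is 0.88 log2 units away. miR-1 was dim, at 6.64 in the injured artery, close to background, and 21.2 in the uninjured artery. It was followed by miR-494 (-1.18), miR-144 itself, miR-133a (-1.09) and miR-133b (-1.03), and the next ratio of all was thus well above it. For miR-144 the nearest were miR-133a, 0.02 log2 units away, miR-494, miR-133b, miR-218 (-0.96) and miR-188 (-0.88). Likeness here is only the difference of the ratios over 2 arrays. miR-101a and miR-101b, which begin with the same bases as miR-144, had ratios of 0.02 (intensities of 390 in the injured and 409 in the uninjured artery) and 0.33 (87.5 in the injured and 73.9 in the uninjured artery). How well the probes separate these sequences was not tested.

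The members did not move by the same amount, although they come from 1 transcript. The log2 ratio of miR-451 was 1.36 units below that of miR-144, a 2.57-fold gap that does not depend on any uniform scaling of the arrays. With quantile normalization the difference, miR-451 minus miR-144, was -1.25, and with the highest undetected intensity subtracted from each array it was -1.13. Adding an intensity of 50 to every value, which pulls dim features towards 0, gave a difference of -1.73, with miR-144 itself at -0.31 and so no longer 2-fold lower. miR-451 was at -2.04 under that setting.

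Other neighbouring hairpins give a measure of how far such pairs can differ on these arrays. This comparison was chosen after the values were seen. There were 22 pairs of hairpins on 1 strand, at most 10000 bases apart, that were neighbours among the hairpins kept. Kept hairpins had a miRNA detected on both arrays and a name matched to 1 RefSeq hairpin. Hairpins left out by this rule can lie within a pair. In the 21 other pairs the ratios differed by 0.003 to 2.05 log2 units, with a median of 0.48, and 3 pairs differed by more than miR-144 and miR-451. Those 3 were miR-494 with miR-376a (9173 bases apart), miR-532-5p with miR-188 (321 bases), and miR-379 with miR-329 (4383 bases). miR-144 and miR-451 are 89 bases apart. In the 6 pairs whose dimmer miRNA had a geometric mean intensity over both arrays of 64 or more, the difference was at most 0.46. In the 15 pairs with a dimmer miRNA below that, as is miR-144 with a geometric mean of 23.6, it reached 2.05. The part of low signal in the gap between miR-451 and miR-144 was not tested.

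**Figure D3:**
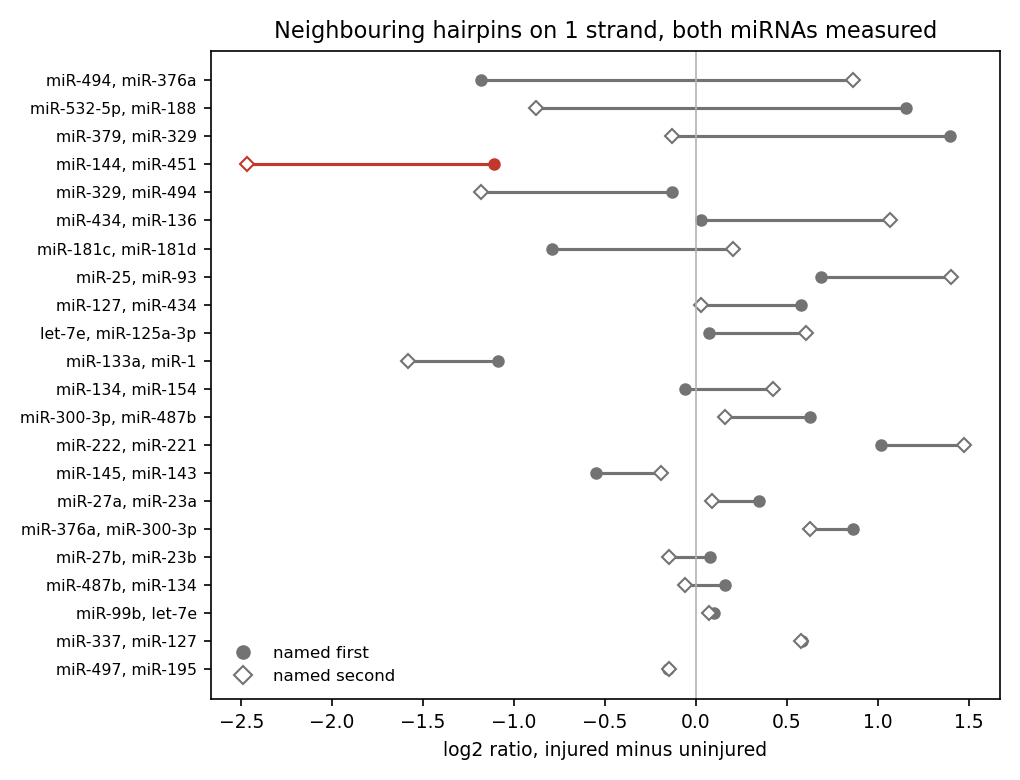
Log2 ratio (injured minus uninjured) of both miRNAs in 22 pairs of hairpins, neighbours among those kept, ordered by their difference. The filled point is the miRNA named first and the open point the one named second. The pair of miR-144 (-1.11) and miR-451 (-2.47) is the fourth widest, and both of its points lie below 0.

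miR-451 is often set against miR-23a, a miRNA little affected by the lysis of red cells, as a gauge of red-cell RNA in blood samples. miR-23a had nearly equal intensities, of 3693 in the injured artery and 3691 in the uninjured artery. Relative to miR-23a, miR-451 was 5.88-fold lower and miR-144 was 2.29-fold lower in the injured artery. With quantile normalization these differences were -2.60 and -1.35 on the log2 scale. With an intensity of 50 added to every value they were -2.12 and -0.39, so that the ratio of miR-144 was less than 2-fold below that of miR-23a.

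The further miRNAs that are abundant in red cells, but made in many cell types, did not share the low ratios. Of the 11 on the list, 10 were detected on both arrays. None of the 10 was at least 2-fold lower, against 3.8% of the 158. At least 2-fold higher were 3, against 12.7% of the 158, namely miR-93 (1.41), miR-15b (1.33) and miR-92a (1.20). The median log2 ratio of the 10 was 0.61, against 0.14 for all 158. Above 0 were 9 of the 10, and 103 of the 158. These 10 are not all independent, since the hairpins of miR-25 and miR-93 lie 119 bases apart on 1 strand. miR-16, which red cells hold in large amounts, had an intensity of 2372 in the injured and 1739 in the uninjured artery, a ratio of 0.54. The remaining ratios were those of miR-106b (0.87), miR-25 (0.69), miR-22 (0.33), miR-107 (0.10), miR-185 (0.08) and miR-103 (-0.04), while miR-363 was detected on neither array. Aligned on the control features, which lowers every ratio by the same amount, 5 of the 10 were above 0, none was at least 2-fold higher or lower, and the list's median was 0.020, against -0.45 for all 158. miR-486, a further miRNA of the red-cell lineage, is not analysed here.

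Markers of other cells moved alongside the cluster, in both directions. In the leukocyte list 3 of 5 miRNAs were at least 2-fold higher, against 12.7% of the 158. The list had a summed intensity of 515 in the injured artery and 241 in the uninjured artery. Its highest ratios were those of miR-142-5p (2.49), miR-142-3p (1.88) and miR-223 (1.67), a miRNA of myeloid cells, while miR-342-3p stood at 0.19. miR-150, a miRNA of mature lymphocytes that is plentiful in circulating blood, was at -0.50, with intensities of 54.7 in the injured and 82.4 in the uninjured artery. The blood cell miRNAs thus went apart: both red-cell members were low, 3 leukocyte members were high, and miR-150 lay below 0 by less than 2-fold. With the control features aligned the 3 leukocyte members were still at least 2-fold higher, and miR-150 was at -1.09.

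Vessel-wall miRNAs had ratios nearer to 0 than miR-451. miR-126, made by endothelial cells and also held by platelets, had intensities of 587 in the injured and 592 in the uninjured artery, a ratio of 0.08, and its partner strand miR-126* stood at -0.22. With the control features aligned these ratios were -0.51 and -0.81, and that of miR-451 was -3.06. miR-143 (-0.19) and miR-145 (-0.55), which mark smooth muscle and so the labelled tissue, were detected on both arrays, with a summed intensity of 14465 in the injured and 17749 in the uninjured artery. Aligned on the control features miR-143 was at -0.79 and miR-145 at -1.14, at least 2-fold lower.

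In the lists of muscle and nerve miRNAs, those detected on either array were lower together with the cluster. Of the 6 miRNAs in the striated muscle list, 4 were detected on both arrays. All 4 had negative ratios, against 34.8% of the 158, and 3 were at least 2-fold lower, against 3.8%. Those 3 are not independent, since the hairpins of miR-133a and miR-1 lie 2368 bases apart on 1 strand. The list had a summed intensity of 200.4 in the injured and 432 in the uninjured artery, with miR-499 at -0.29. miR-1 (6.64 injured) and miR-499 (7.73 injured, 10.1 uninjured) lay near the highest undetected intensities, 5.98 injured and 8.84 uninjured. miR-206 was detected on neither array and miR-208 was undetected and listed at exactly 1 on both, a value shared by 109 miRNAs on each array. In the nerve list, miR-124, miR-9 and miR-137 were detected only in the uninjured artery, and miR-338 had a ratio of -0.85. The summed intensity was 152 in the injured and 362 in the uninjured artery, most of it miR-338, at 147 injured and 283 uninjured. This list leaves out other miRNAs of nervous tissue, which went both ways. For example, miR-138 and miR-9* were detected only in the uninjured artery. miR-132 and miR-219-5p were detected only in the injured artery, and miR-128 stood at 0.36. The uninjured intensity of miR-9, 7.43, lay under the highest undetected miRNA (8.84) and the highest negative control (8.19) of that array. The 2 cluster members summed to 125 in the injured and 677 in the uninjured artery. What part differences in blood, blood cells, muscle or nerve in the dissected vessels had in the low ratios of miR-451 and miR-144 was not tested.

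**Figure D4:**
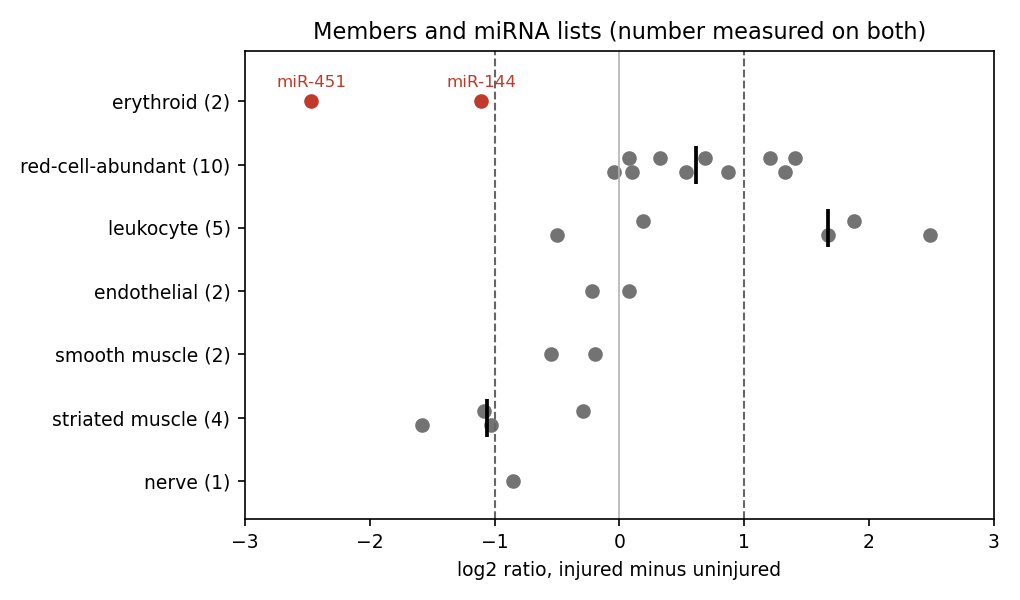
Log2 ratio (injured minus uninjured) of the cluster members and of the other miRNA lists, for miRNAs detected on both arrays, with a black bar at the median of lists of 3 or more and dashed lines at 2-fold. miR-451 lies below every other point drawn, the red-cell-abundant list has its median at 0.61 and the leukocyte list at 1.67. miR-124, miR-9 and miR-137, detected only in the uninjured artery, are not drawn.

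The direction of both members was the same under every processing choice tried. Over the 6 scalings, no scaling included, miR-451 was between 5.53-fold and 8.33-fold lower and miR-144 between 2.16-fold and 3.25-fold lower in the injured artery. The scaling used above gave the smallest of these folds for both. The value table that the authors deposited lists the injured artery at a ratio of 0.170 to the uninjured artery for miR-451 and 0.436 for miR-144. These equal the quotients of the deposited intensities.

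**Figure D5:**
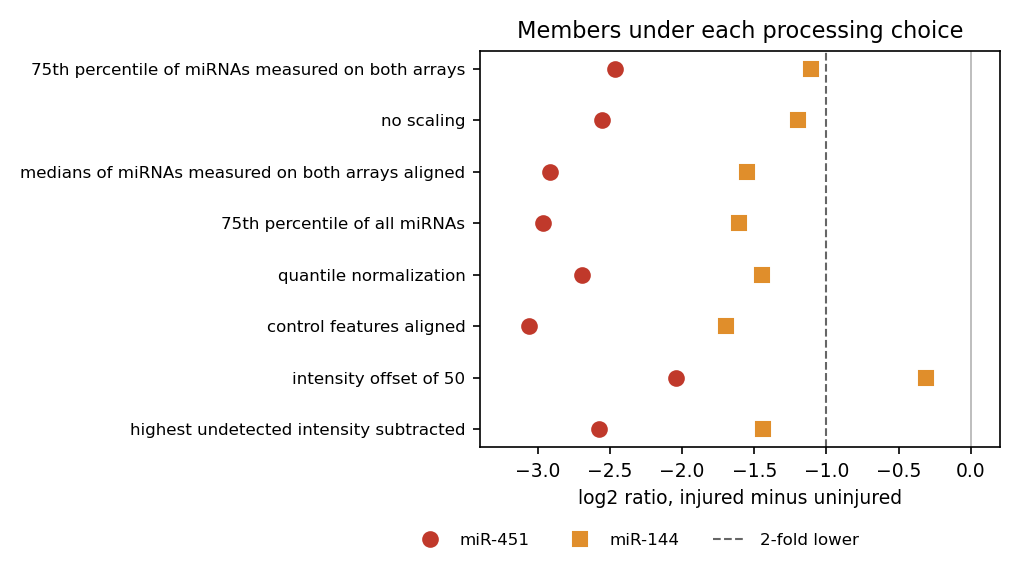
Log2 ratio (injured minus uninjured) of miR-451 (circles) and miR-144 (squares) under 6 scalings, with an added intensity offset of 50 and with background subtracted, with a dashed line at 2-fold lower. miR-451 stays between -3.06 and -2.04, and miR-144 crosses the 2-fold line only with the offset, at -0.31.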

How the data were processed

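Per the labels, total RNA was extracted with Trizol, checked on a Bioanalyzer and, with Agilent's miRNA reagent, labelled with Cy3. The deposited array data give a linear intensity and a flag of 0 or 1 per feature. For scanner software, background subtraction and normalization, no source used here gives any detail. The flag was 0 on all 7 negative controls of each array and was read as detection, with 184 miRNAs detected on the injured and 166 on the uninjured array. The deposited value table holds a linear ratio, which equalled injured over uninjured intensity for 349 of 349 shared names (relative tolerance 1e-05). Its median was 1 in both columns. No scaling between arrays and no centring was thus added to the deposited intensities in that table. Whether the intensities themselves had been scaled is not known.

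The log2 of each intensity was taken, less the array's 75th percentile among 158 miRNAs detected on both arrays, at 377 on the injured and 401 on the uninjured array, which raised each ratio by 0.09. The arithmetic was checked on simulated data, made from the uninjured array with set changes and no added noise. That check does not measure the error of dim features or of 1 array. With 1 array per group no test was run, and the number of arrays limits the precision. A 2-fold difference is a descriptive threshold. Alternatives were other scalings, an added offset, background subtraction and a stricter rule for detection. The members, lists and rules were chosen with earlier results of these data known. Named miRNAs are the members, the lists, miR-23a, the 5 ratios nearest to each member and miRNAs sharing bases 2 to 7; neighbours in brightness, also in that rule, are left out because brightness depends on the probe. Sequences and positions are from RefSeq (GRCr8). Hairpins were folded with RNAfold 2.7.2, and other steps used Python 3.11.15, numpy 2.4.6 and pandas 2.3.3.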

Additional observations from a re-analysis of the deposited data

How the results depend on the processing

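None of these alternatives measures replicate error. Except under quantile normalization and the changes to the intensities, a scaling adds 1 constant to every log2 ratio, so it cannot alter the order of the members or the gap between them. The log2 ratio of miR-451 was -2.56 without scaling and in the value table, -2.91 with the medians aligned, -2.97 with the all-miRNA 75th percentile, -2.69 with quantile normalization, -3.06 with the control features aligned, -2.04 with an intensity offset of 50 and -2.57 with the highest undetected intensity subtracted, an alternative chosen after seeing the data. In the same order miR-144 stood at -1.20, -1.55, -1.61, -1.45, -1.70, -0.31 and -1.44. The place of miR-451 from the lowest was 1 with quantile normalization and the offset and 2 with subtraction, after miR-1 at -4.16. That of miR-144 was 3 with quantile normalization, 10 with the offset, which by its construction shrinks the ratios of dim miRNAs, and 3 with subtraction. The injured intensity of miR-1, 6.64, lay just above the 5.98 that was subtracted from that array.

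The difference between miR-451 and miR-144 was -1.25 with quantile normalization, -1.73 with the offset and -1.13 with subtraction. That between miR-451 and miR-23a was -2.60, -2.12 and -2.62, and that between miR-144 and miR-23a -1.35, -0.39 and -1.49. The counts of miRNAs at least 2-fold higher and lower were 17 and 7 without scaling, 8 and 16 with the medians aligned, 7 and 20 with the all-miRNA 75th percentile, 12 and 11 with quantile normalization, 7 and 23 with the control features aligned, 8 and 2 with the offset, and 15 and 7 over the 151 miRNAs above the highest undetected intensity on both arrays. In the order no scaling, medians, all-miRNA 75th percentile, quantile and control features, the median log2 ratio was 0.52, 0.17, 0.11, 0.24 and 0.020 for the red-cell-abundant list, 1.58, 1.23, 1.17, 1.43 and 1.08 for the leukocyte list, and -1.15, -1.50, -1.56, -1.28 and -1.65 for the striated muscle list, against -1.06 as scaled here.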
